A study of Mus musculus with 4 samples.

Results

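Fc receptors bind the constant part of antibodies, and 7 genes of this family were followed in mouse bone marrow cells: Fcgr1, Fcgr2b, Fcgr3, Fcer1g, Fcer2a, Fcrla and Fcgrt. Every probe set that the platform annotation gives to exactly 1 of these genes was taken, which made 13 of the 20380 probe sets with a single gene and 7 of 12393 genes. The genes were selected on their difference between the groups described here, in these same arrays, so their values are a description and no p-value is given for them.

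The mice carried the Mll-AF4stop knock-in, a fusion construct that Cre recombinase is meant to switch on, and received the cytotoxic drug 5-FU. After 5 days their marrow was infected outside the body with a Cre-GFP retrovirus or with a control GFP retrovirus, GFP+ cells were sorted 2 days later, and these were kept for 14 days with cytokines for lymphoid progenitors. Each group had 2 Affymetrix arrays, called Cre-GFP 1 and 2 and control 1 and 2. All 4 arrays thus share the knock-in allele, 5-FU, viral infection and sorting. Age and strain are not stated, nor whether the 2 arrays of a group stem from different animals or cultures, so the spread between them may be technical. The series' design text names the control virus MIG-Cre, whereas the sample labels name a GFP control; the labels were followed, and with them the presence of Cre and an active fusion cannot be told apart.

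The receptors fall into roles that oppose each other. Fcgr1, the high-affinity receptor for IgG, and Fcgr3, a low-affinity one, signal through Fcer1g, the common gamma chain, whose ITAM motif recruits the kinase Syk in macrophages, neutrophils, mast cells and NK cells. Fcgr2b carries an ITIM motif instead, recruits the phosphatase SHIP-1 (Inpp5d), and is the receptor for IgG on B cells, where it dampens signalling of the B cell receptor; myeloid cells carry it too. Fcer2a encodes CD23, a low-affinity IgE receptor of mature B cells, Fcrla an Fc receptor-like protein that stays inside B cells, and Fcgrt the neonatal Fc receptor, which pairs with B2m and returns IgG from endosomes to the surface.

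Fcgr2b, the inhibitory receptor, was lower in both Cre-GFP arrays on all 4 of its probe sets, with no overlap with control. Fcrla was also lower without overlap on its 3 probe sets, by a large margin on 1 of them. The activating chains differed little and in the other direction: Fcer1g was higher in both Cre-GFP arrays, Fcgr3 was higher on average with overlapping groups, and Fcgr1 was too dim to order. In all, 7 of the 13 probe sets were lower in both Cre-GFP arrays (14.6% of all probe sets were), and these belonged to Fcgr2b and Fcrla. A further 2 were higher in both (15.4% of all probe sets), and 4 overlapped. The number higher was 5 without Cre-GFP 2 and 6 without control 2, while the number lower was 7 or 8 without any single array. Lower by at least 1 on the log2 scale without overlap were 4 of the 13, against 0.348% of all probe sets; the members were selected on this contrast, so nothing is read from these shares.

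The starts of Fcgr2b and Fcrla are shown because they were the members that stood lower together, and those of Fcgr3 and Fcer1g because these genes lie in the same stretch of chromosome 1 and did not. Each window covers 250 bases before to 50 bases after a transcript start in RefSeq (GRCm38.p6), read on the minus strand, 5′ to 3′. Capitals mark matches, on either strand, to GAGGAA, the core bound by the Ets factor PU.1, or to GGAANNGAA, a spacing at which Ets and IRF factors can bind side by side. The windows are chr1:170976022-170976321 for Fcgr2b, chr1:170927534-170927833 for Fcrla, chr1:171059354-171059653 for Fcgr3 and chr1:171234300-171234599 for Fcer1g.
Fcgr2b: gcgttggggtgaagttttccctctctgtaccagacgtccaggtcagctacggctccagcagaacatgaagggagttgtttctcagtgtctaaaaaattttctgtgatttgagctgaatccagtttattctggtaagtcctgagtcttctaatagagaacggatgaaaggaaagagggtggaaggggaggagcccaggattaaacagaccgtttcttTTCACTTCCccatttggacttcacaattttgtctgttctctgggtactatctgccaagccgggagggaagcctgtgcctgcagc
Fcrla: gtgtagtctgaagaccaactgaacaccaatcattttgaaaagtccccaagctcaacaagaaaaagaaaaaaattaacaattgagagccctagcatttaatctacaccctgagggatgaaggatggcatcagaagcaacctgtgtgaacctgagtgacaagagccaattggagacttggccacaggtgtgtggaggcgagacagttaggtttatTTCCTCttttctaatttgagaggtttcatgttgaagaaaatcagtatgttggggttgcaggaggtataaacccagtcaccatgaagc
Fcgr3: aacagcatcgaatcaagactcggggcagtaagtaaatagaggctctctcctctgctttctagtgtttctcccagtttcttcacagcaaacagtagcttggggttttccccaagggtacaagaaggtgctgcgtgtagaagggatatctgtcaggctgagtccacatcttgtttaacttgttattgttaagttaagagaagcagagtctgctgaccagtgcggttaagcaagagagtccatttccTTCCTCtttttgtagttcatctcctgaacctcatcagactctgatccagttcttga
Fcer1g: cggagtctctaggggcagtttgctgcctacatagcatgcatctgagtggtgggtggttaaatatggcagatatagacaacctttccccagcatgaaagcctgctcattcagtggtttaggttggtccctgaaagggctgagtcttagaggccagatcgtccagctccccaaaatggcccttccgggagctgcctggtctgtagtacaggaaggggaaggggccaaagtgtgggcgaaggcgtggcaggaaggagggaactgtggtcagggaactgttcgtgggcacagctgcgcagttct

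The Fcgr2b window held 1 match to GGAANNGAA, which 8.24% of 32851 windows of this length hold, and no GAGGAA. In the Fcrla window there was 1 match to GAGGAA (28.3% of windows) and 1 to the E-box CAGGTG (20.2%). The E-box also occurred 2 times in 1 of the 3 windows of Fcer2a, whose groups overlapped, and the other Fcer2a windows matched none of the motifs searched. GAGGAA also occurred once in the Fcgr3 window above and once in that of Fcgr1, and the latter had 1 match to TTCNNNGAA (8.30% of windows), the spacing bound by Stat factors. The Fcer1g and Fcgrt windows matched none of these, and the octamer ATGCAAAT (1.74%) was in no window of the 7 genes. Among the windows with GAGGAA were that of Fcrla, which was lower, and that of Fcgr3, which was dim with overlapping groups. Nothing about a cause is read from this. A match is only a run of letters, and binding was not measured.

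Of the 4 Fcgr2b probe sets, 3 were designed on the same expressed sequence (BM224327) and 1 on another (M14216). The brightest, 1435477_s_at, had log2 intensities of 8.30 and 9.02 with Cre-GFP (arrays 1 and 2, in this order throughout) against 10.79 and 10.25 with the control virus. Both Cre-GFP arrays were low, with a gap of 1.23 between the groups, and the difference was −1.86 ± 0.31 (SE from limma, n = 2 per group), or 3.63-fold lower. The second brightest, 1435476_a_at, read 9.01 and 9.07 against 9.86 and 9.55, which is 1.58-fold lower (−0.66 ± 0.18). Its Cre-GFP arrays lay 0.06 apart and its control arrays 0.30.

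Probe set 1455332_x_at of Fcgr2b read 6.83 and 7.47 with Cre-GFP against 8.42 and 8.18, 2.22-fold lower (−1.15 ± 0.25). On 1451941_a_at the values were 5.91 and 7.09 against 7.96 and 7.91, 2.71-fold lower (−1.44 ± 0.37), and here the 2 control arrays nearly coincided while the Cre-GFP arrays lay 1.18 apart. Without Cre-GFP 1 this last difference was −0.85, and without Cre-GFP 2 it was −2.03. All 4 probe sets thus had the same direction and the same order of arrays, Cre-GFP 1 lowest, then Cre-GFP 2, control 2 and control 1, but they gave sizes from −0.66 to −1.86. The mark _s_at or _x_at on 2 of them stands for probes shared with other transcripts, and these 2 differed by −1.86 and −1.15, against −0.66 and −1.44 on the 2 without it.

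**Figure D1:**
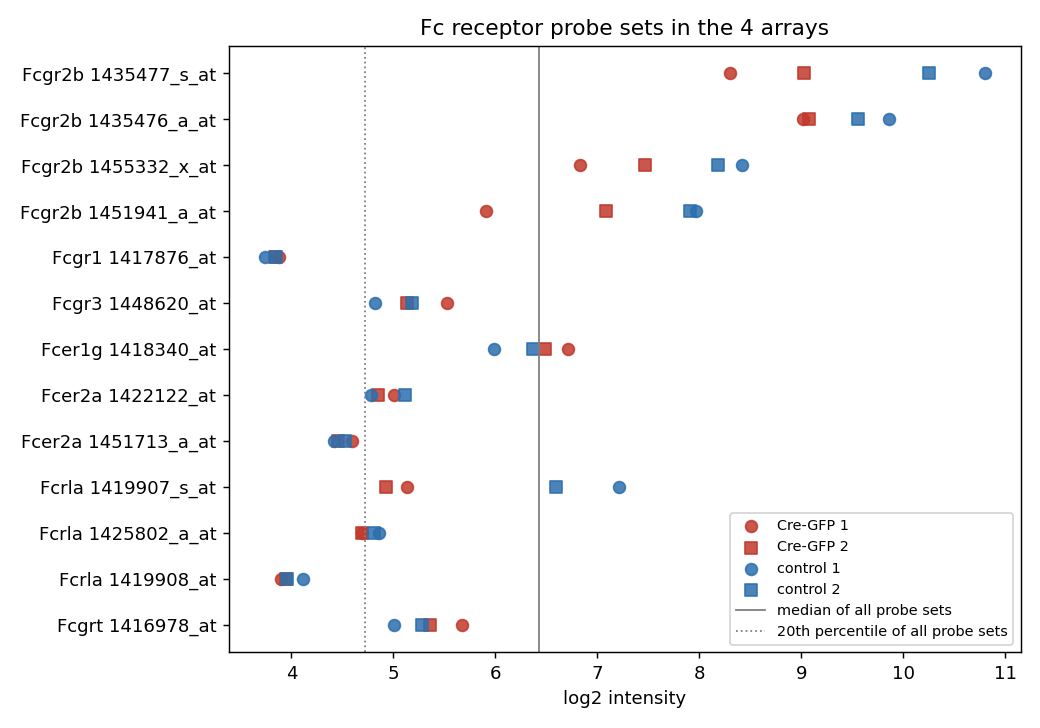
Log2 intensity (x axis) of the 13 probe sets of the Fc receptor genes (y axis) in each of the 4 arrays; red is Cre-GFP, blue is control, circles are replicate 1 and squares replicate 2. Blue points lie to the right of red ones on the 4 Fcgr2b probe sets and on Fcrla 1419907_s_at, while Fcgr1, Fcer2a and 2 Fcrla probe sets lie near or under the 20th percentile of all probe sets (dotted line).

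Fcrla, the intracellular protein of B cells, read 5.14 and 4.93 with Cre-GFP against 7.21 and 6.59 on 1419907_s_at, the 1 of its 3 probe sets that was well above the dim range in any array. It was 3.65-fold lower (−1.87 ± 0.22), with a gap of 1.46 between the groups, and the Cre-GFP arrays lay close to the 20th percentile of their arrays (4.76 and 4.69), so this fold may be understated. A probe set from the same expressed sequence, 1419908_at, stayed under the 20th percentile in all 4 arrays, at 3.90 and 3.95 against 4.11 and 3.95, a difference of −0.11 ± 0.10. The last one, 1425802_a_at, read 4.69 and 4.69 against 4.86 and 4.81 (−0.14 ± 0.09). The probe sets of Fcrla had the same sign, but the size rests on 1419907_s_at alone, whose probes are marked as shared. With values below the 20th percentile set to it, 1419908_at differed by −0.0036 and 1425802_a_at by −0.11. On 1419908_at the nearest arrays lay 0.0077 apart, and the groups overlapped under median centring.

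Among the activating chains, Fcer1g, the gamma chain, read 6.71 and 6.49 with Cre-GFP against 5.99 and 6.37. The groups were 0.12 apart at their nearest arrays, and the difference of 0.42 ± 0.18, or 1.34-fold higher, was 0.61 without control 2 and 0.23 without control 1. Fcgr3 read 5.52 and 5.13 against 4.82 and 5.18 (0.33 ± 0.18), so Cre-GFP 2 and control 2 were nearly equal and the groups overlapped; without control 1 the difference was 0.15, and without Cre-GFP 2 it was 0.52. Fcgr1 read 3.88 and 3.84 against 3.74 and 3.85, under the 20th percentile in every array, and differed by 0.07 ± 0.09, or by −0.0036 once values below that percentile were set to it.

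Fcgrt, the neonatal receptor, read 5.67 and 5.36 with Cre-GFP against 5.00 and 5.28, 1.29-fold higher (0.37 ± 0.16), with the nearest arrays 0.08 apart. Control 1 had the lowest value on Fcer1g, Fcgr3, Fcgr1 and Fcgrt alike. Fcer2a (CD23) read 5.01 and 4.85 against 4.78 and 5.11 on 1422122_at, a difference of −0.02 ± 0.14, and 4.59 and 4.46 against 4.42 and 4.53 on 1451713_a_at, which was under the 20th percentile in all arrays. The 2 Fcer2a probe sets overlapped between the groups, and the difference on 1422122_at turned sign with the array left out (−0.18 without control 1, 0.15 without control 2).

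**Figure D2:**
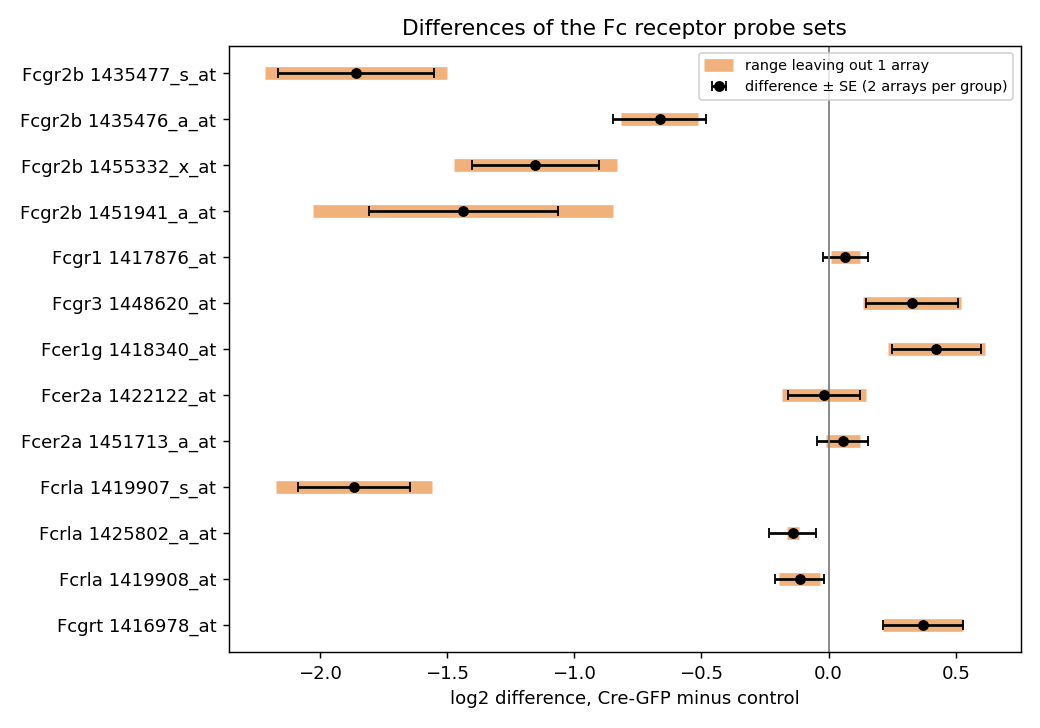
Log2 difference, Cre-GFP minus control (x axis), of each Fc receptor probe set (y axis); points are the difference with its SE from limma (2 arrays per group), and orange bands span the 4 values obtained when 1 array is left out. The bands of the 4 Fcgr2b probe sets run from −2.22 to −0.51, and the band of Fcrla 1419907_s_at from −2.17 to −1.56. Where groups do not overlap, leaving out 1 array cannot change the sign.

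To set the inhibitory receptor against the activating chains within each array, the mean log2 value of Fcgr1, Fcgr3 and Fcer1g was subtracted from that of Fcgr2b (1435477_s_at). Only the change of this quantity between arrays has a meaning, since probe sets differ in brightness. It came to 2.93 and 3.87 with Cre-GFP against 5.95 and 5.11, with means of 3.40 ± 0.66 and 5.53 ± 0.59 (SD, n = 2). The groups did not overlap and differed by −2.13, since Fcgr2b differed by −1.86 and the mean of the activating chains, which is subtracted, by 0.27. An exact permutation test of 2 arrays against 2 cannot give a p below 0.33. The value was −0.94 without probe sets marked as shared, where Fcgr2b is read by 1435476_a_at, and −1.55 with the mean of each gene's probe sets. Of the 4 Fcgr2b probe sets 1435476_a_at had the smallest difference (−0.66). The other one not marked as shared, 1451941_a_at, differed by −1.44, so the −0.94 also depends on which of them is read.

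Fcrla, Fcgr2b, Fcgr4, Fcgr3 and Fcer1g lie in 1 stretch of chromosome 1, in that order in RefSeq. Of 18 measured genes from Uhmk1 to Usp21, Fcrla and Fcgr2b were the 2 that were lower in both Cre-GFP arrays (14.9% of all genes were). No measured gene lies between them. The other 16 differed by −0.18 to 0.42. Fcgr4, an activating IgG receptor of myeloid cells next to Fcgr2b, read 6.96 and 6.67 with Cre-GFP against 6.84 and 6.71, a difference of 0.04 with overlapping groups. Dusp12, a phosphatase on the Fcrla side, read 7.06 and 7.43 against 6.86 and 7.26 (0.19), also with overlap. The step in the differences therefore lay between Dusp12 and Fcrla on one side and between Fcgr2b and Fcgr4 on the other. Of the 18 genes 5 were higher in both Cre-GFP arrays (15.2% of all genes were), among them Fcer1g at 0.42 and Sdhc, a subunit of succinate dehydrogenase, at 0.15. Nothing is read from these counts.

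**Figure D3:**
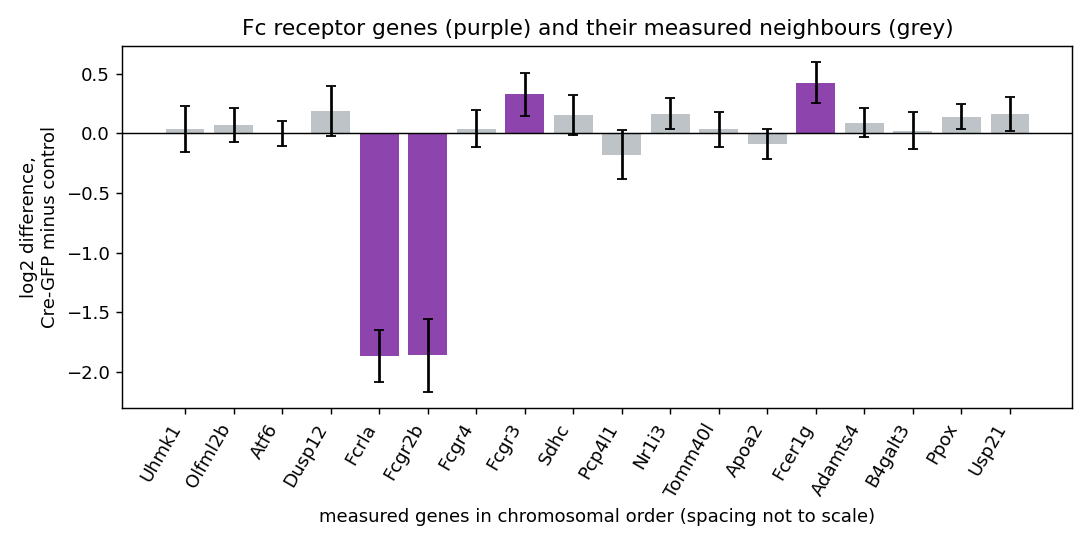
Log2 difference, Cre-GFP minus control (y axis, bars with SE from limma, 2 arrays per group), of 18 measured genes in their order on chromosome 1 (x axis, spacing not to scale), each by its brightest probe set. Purple bars are the Fc receptor genes followed here; Fcrla and Fcgr2b reach −1.87 and −1.86 side by side, and the other 16 genes lie between −0.18 and 0.42.

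Genes around these receptors were taken from 5 lists chosen from general knowledge, with 85 of their genes measured. In limma with Benjamini-Hochberg adjustment 0 of the 85 passed over all genes (4 at an unadjusted p under 0.05), as did 0 of 12393 genes in all (0%; 599 unadjusted), while an ordinary two-sample test passed 2 genes in all and 0 of the 85. Lower in both Cre-GFP arrays were 8 of the 85 and higher in both another 8, against 14.9% and 15.2% of all genes. Without control 1, 135 genes passed in limma, among them Cd79b (−2.11) and Lat (−1.85) of these lists. Leaving out an array leaves 1 in its group, which is then assumed to vary like the other group, and with all arrays the groups overlapped for Lat (8.55 and 7.53 against 8.38 and 9.89). Without control 2, 34 genes passed, with 0 from the lists, and without either Cre-GFP array 0 passed.

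Of 10 measured genes in the list of other Fc-binding and Fc receptor-like genes, 0 were lower and 0 higher without overlap, and the median difference was 0.03, beside 0.00 over all genes. Fcrl1, an Fc receptor-like surface protein of B cells, differed by 0.02, and Fcer1a and Ms4a2, chains of the mast cell IgE receptor, by 0.08 and 0.11, with Fcer1a under the 20th percentile in all 4 arrays; these 3, like Fcgr4, were picked with their values known.

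The ITAM signalling list had 4 of 29 measured genes lower and 3 higher without overlap, with a median of −0.11. Prkcb, the protein kinase C isoform downstream of the B cell receptor, read 8.24 and 7.27 with Cre-GFP against 8.87 and 9.16, a difference of −1.26 ± 0.33 (adjusted p = 0.67 in limma). Blnk, the adaptor of Syk in B cells, differed by −0.42 ± 0.21, and Pik3cd, a catalytic subunit of PI3K, by −0.38 ± 0.17. Plcg2, the phospholipase that Syk and Btk activate, was at 10.85 and 10.52 against 10.33 and 10.27, higher by 0.39 ± 0.18, and Shc1, an adaptor, by 0.11 ± 0.15. Syk itself, picked with its values known, differed by −0.42 ± 0.32 with overlapping groups.

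In the list of inhibitory phosphatases, adaptors and ITIM receptors 2 of 21 genes were lower and 2 higher without overlap, with a median of 0.00. Inpp5d, the SHIP-1 phosphatase that Fcgr2b recruits, read 9.72 and 9.39 with Cre-GFP against 9.59 and 9.69 (−0.08 ± 0.19; picked once its values were known), with overlapping groups. Cd72, an ITIM receptor of B cells, differed by −0.24 ± 0.18, Ceacam1, another ITIM receptor, by −0.17 ± 0.16, and the phosphatase Ptpn11 by 0.15 ± 0.15. Cd22, the ITIM receptor of B cells that binds sialic acid, picked with its values known, read 8.94 and 7.39 against 9.03 and 7.56, with replicate 1 high and replicate 2 low in both groups.

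Other ITAM-linked receptors and adaptors had 2 of 17 genes lower and 2 higher, with a median of 0.05. The 2 that were lower were Cd79b (9.72 and 8.60 against 10.46 and 11.27, −1.70 ± 0.43) and Cd79a (8.99 and 8.69 against 9.45 and 9.82, −0.80 ± 0.21), the ITAM-bearing pair that signals for the B cell receptor, with limma's adjusted p = 0.64 and 0.67. Tyrobp, the ITAM adaptor of myeloid and NK cells, also picked with its values known, read 8.50 and 7.99 with Cre-GFP against 6.95 and 8.14 (0.70 ± 0.40), again with control 1 lowest. Of the 8 measured partners of CD23 and the neonatal receptor 0 were lower and 1 higher, with a median of 0.02, and B2m, the light chain of that receptor, differed by −0.03 ± 0.26.

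**Figure D4:**
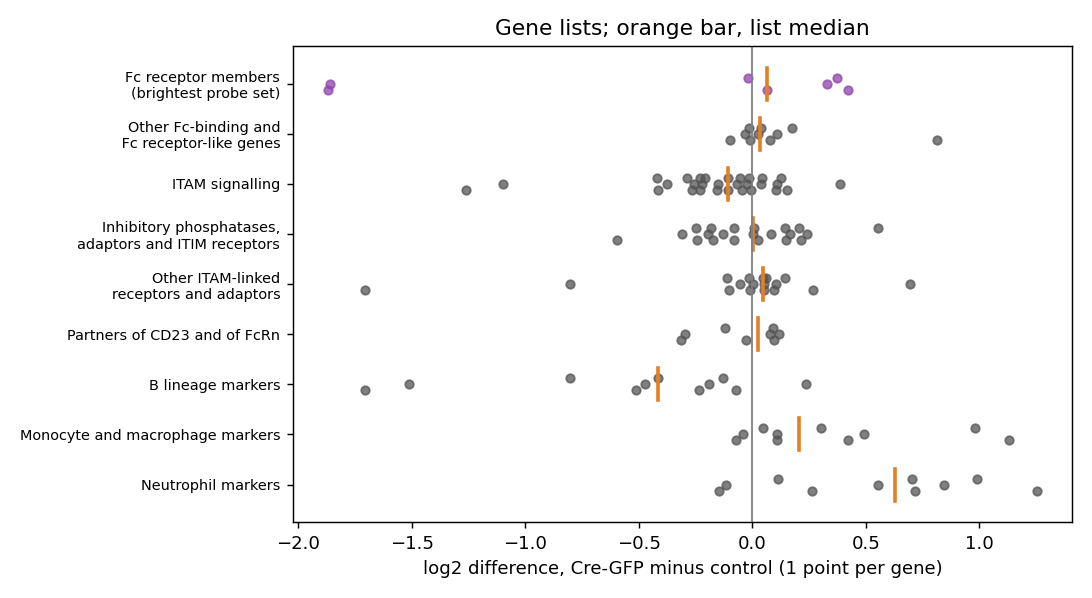
Log2 difference, Cre-GFP minus control (x axis), with 1 point per gene, for the 7 Fc receptor genes (purple), 5 lists of related genes and 3 lists of cell type markers (grey); orange bars are list medians. Fcrla and Fcgr2b lie at −1.87 and −1.86, beyond Cd79b at −1.70, while the medians of the 5 related lists lie between −0.11 and 0.05.

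Some markers of cell types also stood apart between the groups, though 0 markers of any list passed the adjusted limma threshold. In RNA of a whole culture, fewer cells of a type and less RNA per cell cannot be told apart. Over all genes, 14.9% were lower in both Cre-GFP arrays and 15.2% higher, the shares beside which the marker counts stand. Of 11 measured B lineage markers 7 were lower in both Cre-GFP arrays and 0 higher, with a median of −0.42. Vpreb3, 1 of the 7, read 7.69 and 6.89 with Cre-GFP against 7.70 and 9.91, so its groups barely parted and its difference came from control 2. The summed linear intensity of the 11 was 29600 to 29970 in Cre-GFP and 34840 to 40020 in control. Linear sums follow the brightest genes of a list, here Igll1 and Vpreb1, and do not count cells. Igll1 and Vpreb1, the surrogate light chains of early B cells, read 13.28 to 13.67 in Cre-GFP and 13.38 to 13.83 in control. Ms4a1 (CD20), a marker of mature B cells, read 5.33 and 5.04 with Cre-GFP against 5.52 and 5.79; levels of different probe sets cannot be ranked. Monocyte and macrophage markers were higher in both Cre-GFP arrays in 3 of 10 cases and lower in 0, with a median of 0.21 and sums of 2566 to 3222 against 1707 to 2421. Csf1r, the receptor for the macrophage growth factor, read 10.01 and 9.32 against 8.16 and 8.91, with control 1 lowest, as for Fcer1g and Fcgr3. The part of these shifts in the differences of the receptors was not tested.

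Neutrophil markers were higher in 4 of 10 cases and lower in 1, with a median of 0.63 (15.2% and 14.9% of all genes were higher and lower). The 4 were Mpo (1.25), Ctsg (0.99), Prtn3 (0.70) and Elane (0.26), and the 1 was Csf3r (−0.15). Sums of the 10 markers were 3777 to 4497 in Cre-GFP and 1552 to 5239 in control. Medians of the other marker lists were 0.03 for mast cells and basophils (1 lower and 1 higher of 8), 0.07 for dendritic cells (1 and 3 of 6), −0.19 for NK cells (3 and 1 of 5) and 0.00 for T cells (1 and 0 of 6). Their sums were 674.2 to 957.6 in Cre-GFP and 700.6 to 850.3 in control for mast cells and basophils, 745.2 to 789.3 and 723.5 to 742.5 for dendritic cells, 615.7 to 889.5 and 486.9 to 796.9 for NK cells, and 1322 to 1392 and 1462 to 1604 for T cells. In these sums too the brightest gene weighs most, which was Kit for mast cells, Nkg7 for NK cells and Thy1 for T cells. No B lineage, monocyte or neutrophil marker was under the 20th percentile in all arrays, while 1 of the mast cell and 2 of the T cell markers were.

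Within the groups, Fcgr2b and the B lineage markers did not follow the same order of arrays. With 2 arrays per group such an order is only a description, and its cause was not tested. On all 4 Fcgr2b probe sets Cre-GFP 1 was below Cre-GFP 2 and control 1 above control 2. Of the 11 measured B lineage markers, 3 had Cre-GFP 1 below Cre-GFP 2 and 3 had control 1 above control 2. Among the 7 that were lower in Cre-GFP, 1 had Cre-GFP 1 below Cre-GFP 2 and 1 had control 1 above control 2. Some of these orders rest on small gaps, as for Igll1, with 0.06 between the Cre-GFP arrays and 0.01 between the controls. On Fcgr2b the Cre-GFP arrays lay 0.06 apart on 1435476_a_at, and the controls 0.06 apart on 1451941_a_at. Cd79b was 1.12 higher in Cre-GFP 1 than in Cre-GFP 2, where Fcgr2b (1435477_s_at) was 0.72 lower. On 1419907_s_at, Fcrla shared the order of the control arrays with Fcgr2b, and that of the Cre-GFP arrays with Cd79b. Ebf1, a transcription factor of early B cells and the 1 of the 7 markers with control 1 above control 2, had the order of Fcrla in both groups, with smaller gaps (0.11 between the Cre-GFP arrays and 0.27 between the controls, against 0.21 and 0.62 for Fcrla).

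**Figure D5:**
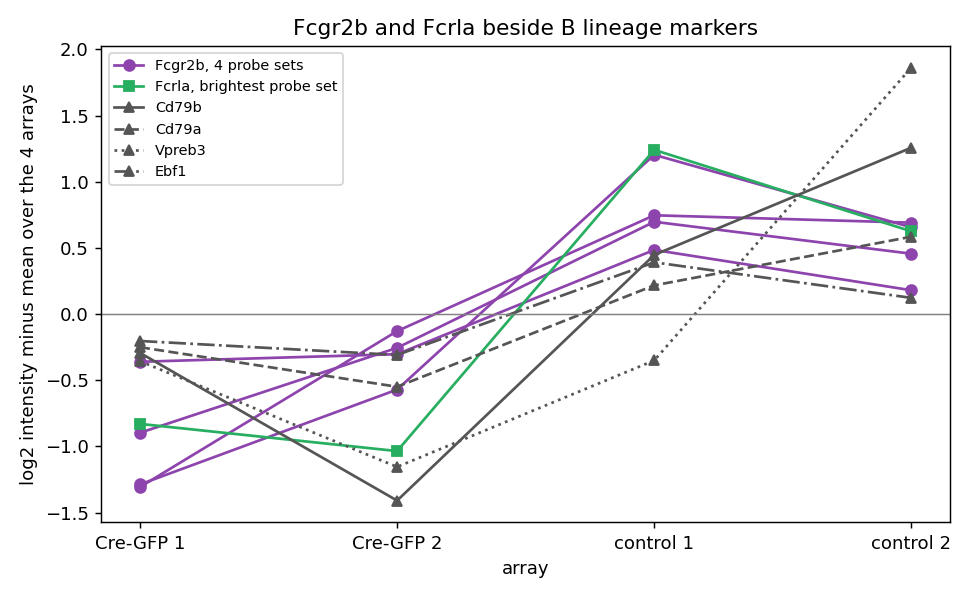
Log2 intensity minus the probe set's own mean over the 4 arrays (y axis) in each array (x axis) for the 4 Fcgr2b probe sets (purple), the brightest Fcrla probe set, 1419907_s_at (green), and the B lineage genes Cd79b, Cd79a, Vpreb3 and Ebf1 (grey), picked with their values known. All lie below 0 in both Cre-GFP arrays, but Fcgr2b peaks in control 1, and so do Fcrla and Ebf1, while Cd79b, Cd79a and Vpreb3 peak in control 2. Vpreb3 is nearly level in Cre-GFP 1 and control 1.

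By the root mean square distance between centred log2 values over the 4 arrays, with 6196 candidate genes, the genes nearest to Fcrla were Slamf7 (0.25), a lymphocyte surface receptor of the SLAM family, Egr1 (0.29), an immediate early transcription factor, Cd52 (0.30), a surface glycoprotein of leukocytes, and Car2 (0.33), a carbonic anhydrase. Their differences were −1.44, −1.39, −1.46 and −1.46. For Fcgr2b, chosen for this after its values were seen, Car2 (0.32), Rbm39 (0.41), Pfn2 (0.43) and Slamf7 (0.45) were nearest. Fcer1g, the member with the largest positive difference, was nearest to Pcyt2 (0.05), Chtf8 (0.06), Khk (0.07) and Zfp52 (0.07), which differed by 0.34 to 0.48. Candidates were genes other than the members with a mean at or above the median gene (6.851), so dimmer genes were not searched. The members' own root mean square spread about their means was 0.96 for Fcrla, 0.98 for Fcgr2b and 0.26 for Fcer1g, so distances cannot be compared between members. These distances rest on 4 arrays, and the likeness is a description.

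The arrays had median intensities of 85.1 to 87.7, and no array stood apart in its median. Kmt2a and Aff1, the genes joined in the fusion, overlapped between the groups on their brightest probe sets, which differed by −0.18 ± 0.26 and −0.26 ± 0.27; whether these probe sets read the construct was not tested, so they check nothing about its activation.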

How the data were processed

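The authors deposited probe set intensities of 4 arrays on a linear scale, made with RMA per the submitters' processing notes (version not given in the sources used here), a method that normally corrects background, equalizes arrays by quantiles and summarizes probes. It hides shifts shared by most genes and compresses differences of dim ones. The deposited values were log2-transformed without further normalization, and neither detection calls nor scan dates entered. Precision is limited by the 4 arrays, and SEs and p-values measure only the spread between them. In limma a probe set's spread is drawn toward that of probe sets of like intensity. Its SE is therefore not that probe set's own replicate spread alone. Of 22690 probe sets, 20380 had 1 gene symbol in the platform annotation and were fitted with limma 3.58.1 in R 4.3.3 (intensity trend, two-sided, Benjamini-Hochberg, threshold 0.05), checked on simulated data; gene counts used each gene's brightest probe set. The lists were other Fc-binding genes, ITAM signalling, inhibitory genes, other ITAM-linked receptors, partners of CD23 and the neonatal receptor, and markers of B, monocyte, neutrophil, mast, dendritic, NK and T cells. Of 108 related list entries, 85 were measured under that name; the others were not analysed here. Members and lists were chosen with earlier results of these data known, and motifs after the windows were seen. Named by rule were all members, and of each related list up to 4 genes with the largest difference and up to 2 in the opposite direction. These list genes had no overlap and a higher group mean at or above the median gene. Also named were the 4 genes of nearest pattern to the members with the largest positive and negative difference. Other named genes, such as Csf1r, Ms4a1, Lat and Sdhc, fall outside this rule, and not all are marked in place. Alternatives left out arrays, blocked on replicate number, renormalized, centred, raised or left out dim values, and changed the test or probe sets. Promoter sequences are from RefSeq (GRCm38.p6), with a window for all 7 genes.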

Additional observations from a re-analysis of the deposited data

How the results depend on the processing

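There were 16 alternative settings over all results, and not every setting applied to the member differences. Of 123 recomputed member differences, 0 changed sign where the groups did not overlap. For such groups, leaving out 1 array, blocking or dropping dim probe sets cannot change the sign, so this count says little. Another 3, all of dim probe sets of Fcgr1 and Fcrla, moved by more than the spread between replicates once values below the 20th percentile were set to it. The number lower in both Cre-GFP arrays (7) was between 5 and 8. The number of member probe sets higher in both Cre-GFP arrays (2) was 2 to 6 with any 1 array left out and 1 without the dimmest 40%; fewer arrays make overlap rarer by construction. The difference between Fcgr2b and the activating chains (−2.13) was −0.94 without shared probe sets, where 1435476_a_at, its probe set with the smallest difference, read Fcgr2b. It was −2.28 without the dimmest 40%, where Fcer1g alone was left among the activating chains, and −2.60 to −1.66 with any 1 array left out. Probe sets past the limma threshold (0) numbered 0 to 26 with any 1 array left out, most without control 1, and 1 by the ordinary test; the cause was not tested. Related list genes past it (0) numbered 0 to 2. With the replicate number as a block, 0 probe sets passed and no call changed. In this balanced layout the block cannot alter a difference, such as the −2.13 between Fcgr2b and the activating chains. Nor could the counts lower and higher, 7 and 2, fall, since the block compares only arrays of the same replicate number. Deviations of arrays with the same number correlated at 0.36 over probe sets. With 2 pairs the number is not taken as a pairing.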
